A study of Mus musculus with 28 samples.

Results

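Complement genes of the liver were followed through 28 RNA-sequencing libraries from the mouse thymus. The libraries were made from sorted mTECs, medullary epithelial cells of the thymus, which present proteins of peripheral organs to developing T cells. The 8 members were taken by symbol from the count table of 55011 genes: Mbl2, C2, Cfb, Cfd, C3, C4b, Hc and Cfi. All 8 were in the table. No measured value was used as a rule to choose them, though earlier results of these data were known when they were chosen. The title of the series names the paralogous nuclear receptors Hnf4a and Hnf4g as its subject.

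All mice were C57BL/6. In wild-type thymus an entero-hepato mTEC gate (3 libraries) was sorted beside a non-entero-hepato mTEC gate (3 libraries). All other mice carried 1 copy of Foxn1-Cre, which acts in thymic epithelium, in the mutant and the control groups alike. Double-mutant mice were Hnf4a(fl/fl) Hnf4g(-/-), Hnf4a-removed mice Hnf4a(fl/fl) Hnf4g(+/-), Hnf4g-removed mice Hnf4a(fl/+) Hnf4g(-/-) and control mice Hnf4a(fl/+) Hnf4g(+/-). The controls thus kept 1 intact allele of each gene in thymic epithelium, and the Hnf4g alleles are written as a null, not as a floxed allele. The mTEChi subset came from double-mutant (4) and control (4) mice, and the post-Aire mTEClo subset from double-mutant (4), Hnf4a-removed (3), Hnf4g-removed (3) and control (4) mice. All mTEChi libraries carry sample numbers from a block apart from that of the mTEClo and gate libraries. The labels name no batch, and subset cannot be told apart from any difference between the blocks. Ages are not given in the labels. The part of each Hnf4 gene that is deleted is not given either, so gene counts do not check the genotypes.

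Complement is a set of plasma proteins, most of them made by hepatocytes, that tag foreign surfaces and form pores in membranes. The lectin and classical pathways build a C3-cleaving enzyme from C4 and C2, and the alternative pathway builds one from C3 itself with factor B, which factor D activates. Cleaved C3 binds to surfaces and leads to cleavage of C5, the start of the membrane pore, and factor I cuts C3b and C4b in the presence of cofactors. Hnf4a is known in the liver as a transcription factor of many hepatocyte genes, and C3 and factor B are also made by epithelia outside the liver.

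Libraries held 4330120 to 8342583 counted reads. Levels below are CPM, read counts brought to a common library total, on library sizes scaled by the TMM method over the 28 libraries, with SD. Defining markers of mTECs (Epcam, Krt5, Krt8, Foxn1, Aire, Cd80, H2-Aa, Cldn4) were all detected in every group and summed to 4372 to 15484 CPM. They were not alike in the 2 wild-type gates: 5 were higher in the entero-hepato gate, and 3 were lower (Krt5, Foxn1 and Aire) by edgeR. Krt5 was at 112 CPM in the gate and 1380 CPM outside it. Replicate 1 of the Hnf4a-removed, Hnf4g-removed and control mTEClo groups lay farthest from the rest of its group along the first principal component (51.6% of the variance), and values without these 3 libraries stand beside the results they touch. In control mTEClo the coordinates were 64.5, 44.4, 46.4 and 28.5, so that replicate 4 lay nearly as far out on the other side. Leaving out replicate 4 alone changed the call of C2 between mTEChi and mTEClo, and of no other member in the comparisons run without it. In pooled cells, fewer cells that express a gene and less RNA of it per cell cannot be told apart.

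C3 supplied most of the complement reads in every library, at 78.4% to 96.7% of the reads of the 8 members. In the entero-hepato gate it ranked 13 or 14 of all genes in a library and took 0.363% to 0.456% of the reads. On a scale per kilobase of annotated exon, which allows genes to be compared, the level there was 967 ± 130 CPM per kb for C3 (SD, n = 3). The next levels per kb were 47.6 ± 17.6 for Mbl2, 20.7 ± 4.63 for C2 and 12.8 ± 1.71 for Cfb. Cfi stood at 5.26 ± 0.98, C4b at 2.32 ± 1.63, Hc at 0.85 ± 0.22 and Cfd at 0.79 ± 0.33 CPM per kb. Control mTEChi had C3, Mbl2 and C2 as the first members per kb, at 140 ± 17.5, 29.2 ± 15.7 and 7.90 ± 1.12. In control mTEClo the order was C3 (76.7 ± 20.7), Cfi (10.4 ± 1.74) and C2 (6.18 ± 1.5), with Mbl2 at 2.26 ± 2.59 CPM per kb (n = 4 each).

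**Figure D1:**
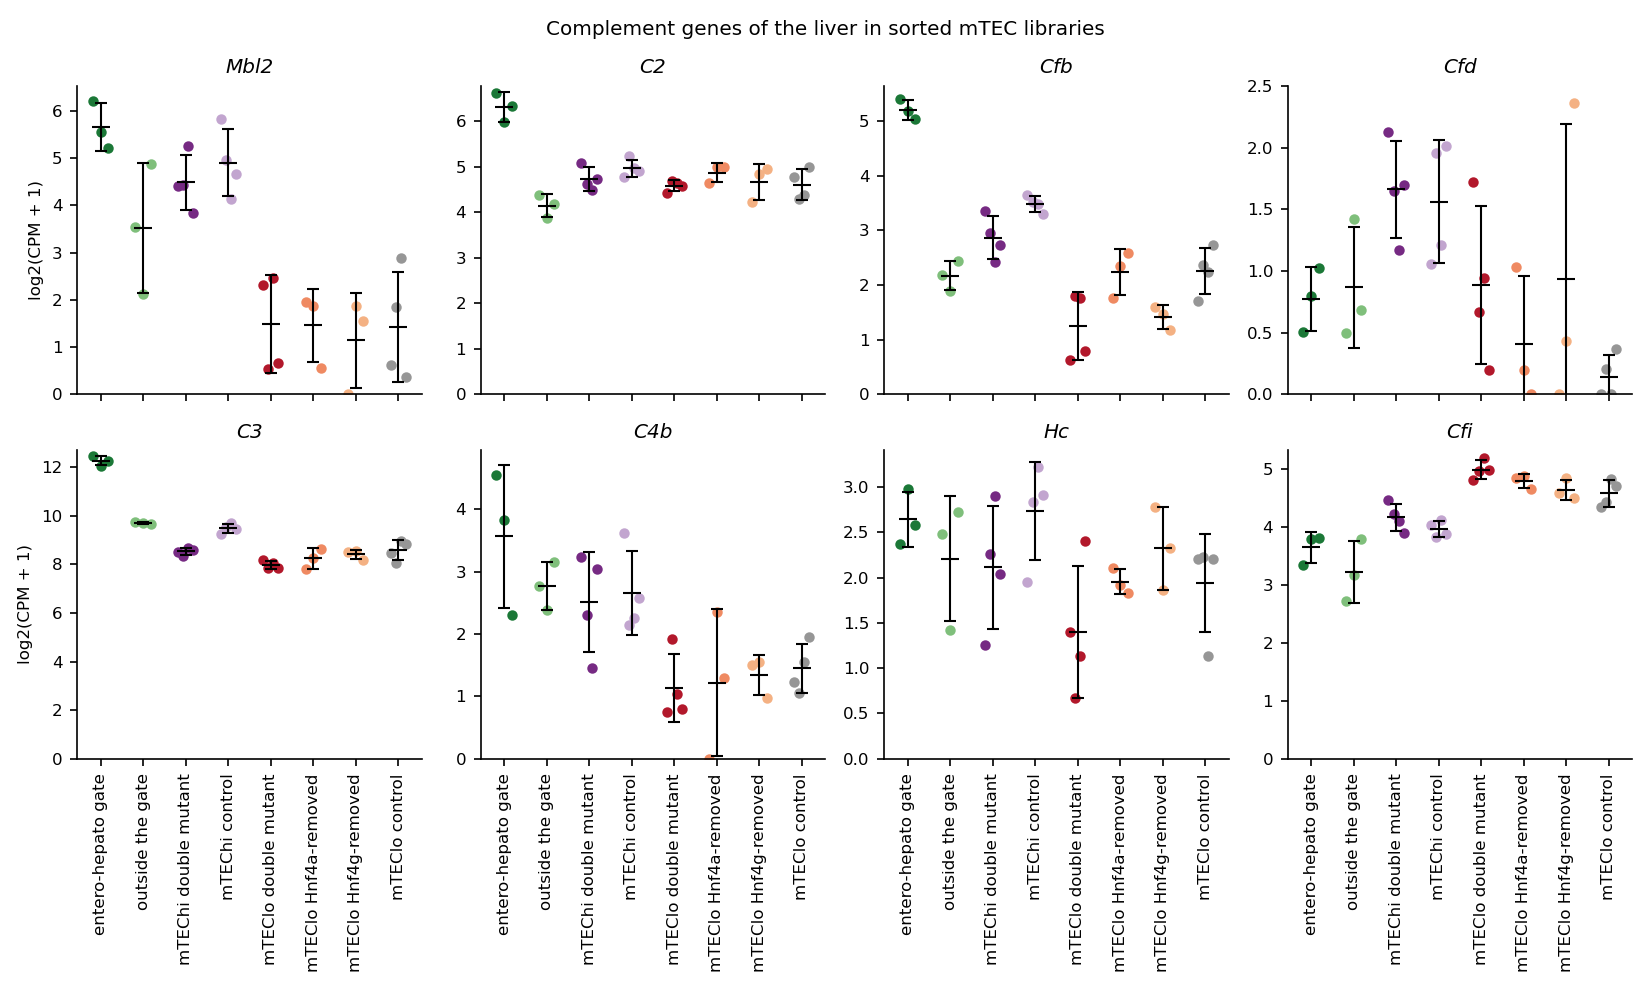
Level of each complement gene in every library, as log2(CPM + 1), with 1 point per library and bars for the group mean and SD; the y axes differ between genes. C3, C2 and Cfb lie highest in the entero-hepato gate, Mbl2 is low in all mTEClo groups, and Cfi lies highest in mTEClo.

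Entero-hepato mTECs carried more transcript of 4 complement genes than mTECs outside the gate: Mbl2, C2, Cfb and C3. C3 was 5.92-fold, C2 4.69-fold, Cfb 9.97-fold and Mbl2 3.63-fold higher. C4b, Hc and Cfi did not pass the test, and Cfd had too few reads to be tested. These 4 of 7 tested members stand against 44.5% of all 16811 genes called in this comparison (edgeR, adjusted p under 0.05). The count of members is thus near the background of calls in either direction. Of the 16811 genes 3822 were called higher in the gate and 3657 lower, whereas all 4 members were higher. The median log2 fold change of the 7 tested members was 1.86, against -0.05 over all genes tested, and all 7 were above 0.

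Mbl2 encodes mannose-binding lectin C, a recognition protein that starts the lectin pathway. It was at 73.1, 46.2 and 36.1 CPM in the entero-hepato gate, against 10.6, 3.36 and 28.4 CPM in the non-entero-hepato gate. The lowest library of the entero-hepato gate lay just above the highest outside it, and the non-entero-hepato libraries spread widely. Its log2 fold change was 1.86 (SE 0.57, 95% interval 0.56 to 3.17, adjusted p = 0.0276 by edgeR). The call was lost without replicate 1 of the entero-hepato gate (log2 fold change 1.56, adjusted p = 0.0863 by edgeR) and without replicate 1 of the non-entero-hepato gate (1.70, 0.0882).

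C2, the protease of the classical and lectin C3 convertase, was at 98.3, 62.5 and 79.5 CPM in the entero-hepato gate, against 19.7, 13.6 and 17.3 CPM outside it. Cfb, factor B, its counterpart in the alternative pathway, was at 41.3, 35.4 and 31.7 CPM, against 3.53, 2.73 and 4.43 CPM outside the gate. For both proteases every library of the gate lay above every library outside it. The log2 fold change was 2.23 for C2 (SE 0.21, adjusted p = 5.05e-05 by edgeR) and 3.32 for Cfb (SE 0.24, adjusted p = 1.51e-05 by edgeR). Cfd, factor D, the protease that cleaves factor B, had 12 reads in all over the 3 libraries of the entero-hepato gate and 13 over those of the non-entero-hepato gate.

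C3, the central component, had 5645, 4312 and 4966 CPM in the entero-hepato gate, against 859, 839 and 800 CPM in the non-entero-hepato gate. The groups were far apart, and the libraries outside the gate differed little among themselves. The log2 fold change was 2.56 (SE 0.11, 95% interval 2.31 to 2.82, adjusted p = 1.2e-06 by edgeR). C4b, the C4 of the classical and lectin convertase, was at 22.5, 13.2 and 3.96 CPM, against 5.81, 4.20 and 7.85 CPM outside the gate. The groups overlapped, since replicate 3 of the entero-hepato gate was the lowest of all 6 libraries, and the fold was not settled (log2 fold change 1.13, interval -0.17 to 2.42, adjusted p = 0.141 by edgeR). Without that replicate C4b passed (log2 fold change 1.60, adjusted p = 0.0150 by edgeR), and it also passed with no filter on low counts (adjusted p = 0.0237 by edgeR).

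Hc encodes C5, from which the membrane pore starts. It was at 4.17, 6.86 and 4.99 CPM in the entero-hepato gate, against 4.57, 1.68 and 5.63 CPM outside it, and the groups overlapped (log2 fold change 0.42, interval -0.72 to 1.56). Cfi, factor I, the protease that inactivates C3b and C4b, was at 9.17, 12.8 and 13.1 CPM, against 5.60, 7.98 and 12.9 CPM. These groups overlapped too, and the interval of the log2 fold change ran from -0.43 to 1.21. A p that misses the threshold does not show that levels were alike, here and below.

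Scaling mattered for the direction of the bulk of genes in this comparison. With TMM 51.1% of the called genes were higher in the gate, whereas with plain library totals 27.7% were, and the median log2 fold change over all genes was -0.41. On plain totals C3 (log2 fold change 2.19), C2 (1.86) and Cfb (2.95) still passed, and Mbl2 did not (1.49, adjusted p = 0.0543 by edgeR).

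Of 44 other complement genes, 30 were tested between the gates. The entero-hepato gate had 12 of them higher and 4 lower, with a median log2 fold change of 0.83 (-0.05 over all genes tested), and with 44.5% of all genes called in this comparison the count is near the background. By role, 5 of 8 fluid-phase regulators and 3 of 6 surface regulators were higher, and 1 surface regulator was lower. Terminal components were higher in 3 of 3 tested, of 6 in the table. Of 11 recognition proteins and initiating proteases, 1 was higher and 3 were lower, and neither of 2 receptors passed in edgeR. C4bp, the C4b-binding cofactor of factor I, was at 283 ± 72.6 CPM in the gate and 11.3 ± 7.42 CPM outside it (log2 fold change 4.63, adjusted p = 2.63e-05 by edgeR). Clu (1776 ± 239 and 539 ± 90.8 CPM) and Serping1, the C1 inhibitor (151 ± 51.1 and 24.2 ± 1.62 CPM), were higher among the fluid-phase regulators. Cd55, which speeds the decay of convertases on cell surfaces, was at 192 ± 67.8 CPM in the gate and 25.4 ± 5.90 CPM outside it. C9, the pore-forming component, was at 22.5 ± 7.43 and 0.76 ± 0.64 CPM. It had at most 7 reads a library outside the gate and passed the filter on low counts through the gate, where it is high. C1s1, a protease of the C1 complex, was lower, at 21.3 ± 3.64 CPM in the gate and 59.5 ± 2.35 CPM outside it (SD, n = 3 each).

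**Figure D2:**
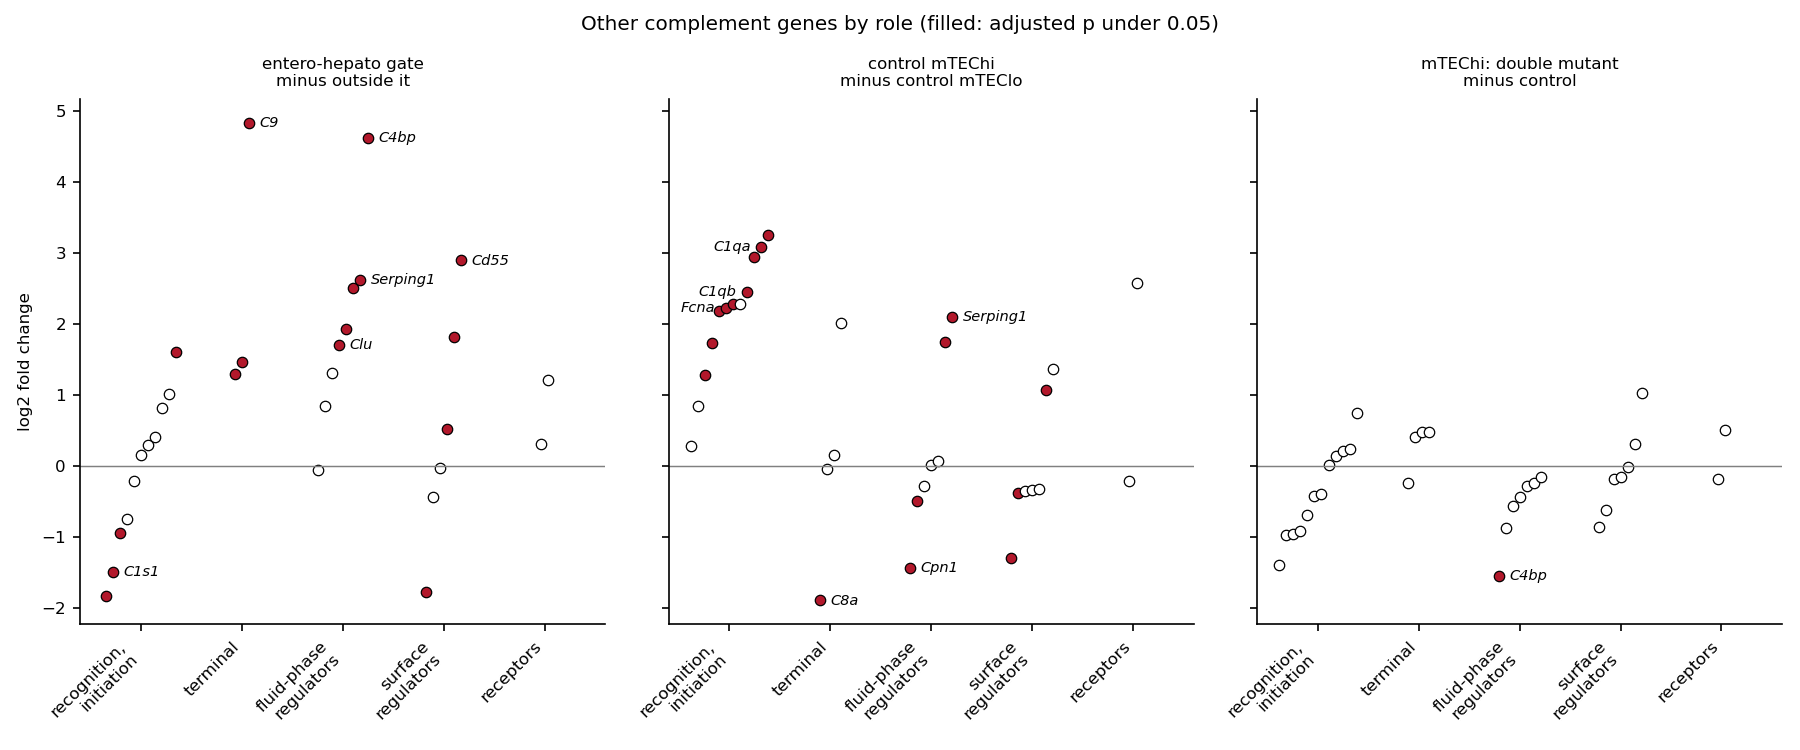
Log2 fold changes of the other complement genes tested, by role, in 3 comparisons (y axis), with 1 point per gene; filled points have adjusted p under 0.05 by edgeR, and the named genes are the called ones with the smallest p, at most 6 a comparison. The fluid-phase regulator C4bp lies at 4.63 between the gates and at -1.55 between double-mutant and control mTEChi.

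Markers of other cell types moved with these genes. The hepatocyte list (7 genes in the table) summed to 663 to 1567 CPM in the entero-hepato gate and 35.3 to 62.5 CPM outside it. Of its 6 tested genes, Ttr and Apoa2 were higher and Ahsg was lower, and Alb was at 26.8 CPM in the gate and 8.35 CPM outside it. Ttr alone averaged 896 CPM in the gate and 11.3 CPM outside it. The macrophage and dendritic cell list summed to 601 to 977 and 251 to 422 CPM, with 4 of 8 genes higher, and the adipocyte list to 594 to 773 and 108 to 147 CPM, with 2 of 4 tested genes higher and Lep at 0 in the gate. The erythroid list summed to 167 to 247 and 16.7 to 25.6 CPM, with 5 of 5 genes higher, and the endothelial list to 19.3 to 86.5 and 7.06 to 8.65 CPM, with 2 of 3. The fibroblast list overlapped, at 74.5 to 166 and 89.6 to 114 CPM. The thymocyte list summed to 20.0 to 56.4 and 17.9 to 19.9 CPM, and the B cell list to 59.0 to 68.8 and 40.5 to 46.3 CPM. The part of these cells in the complement result was not tested.

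**Figure D3:**
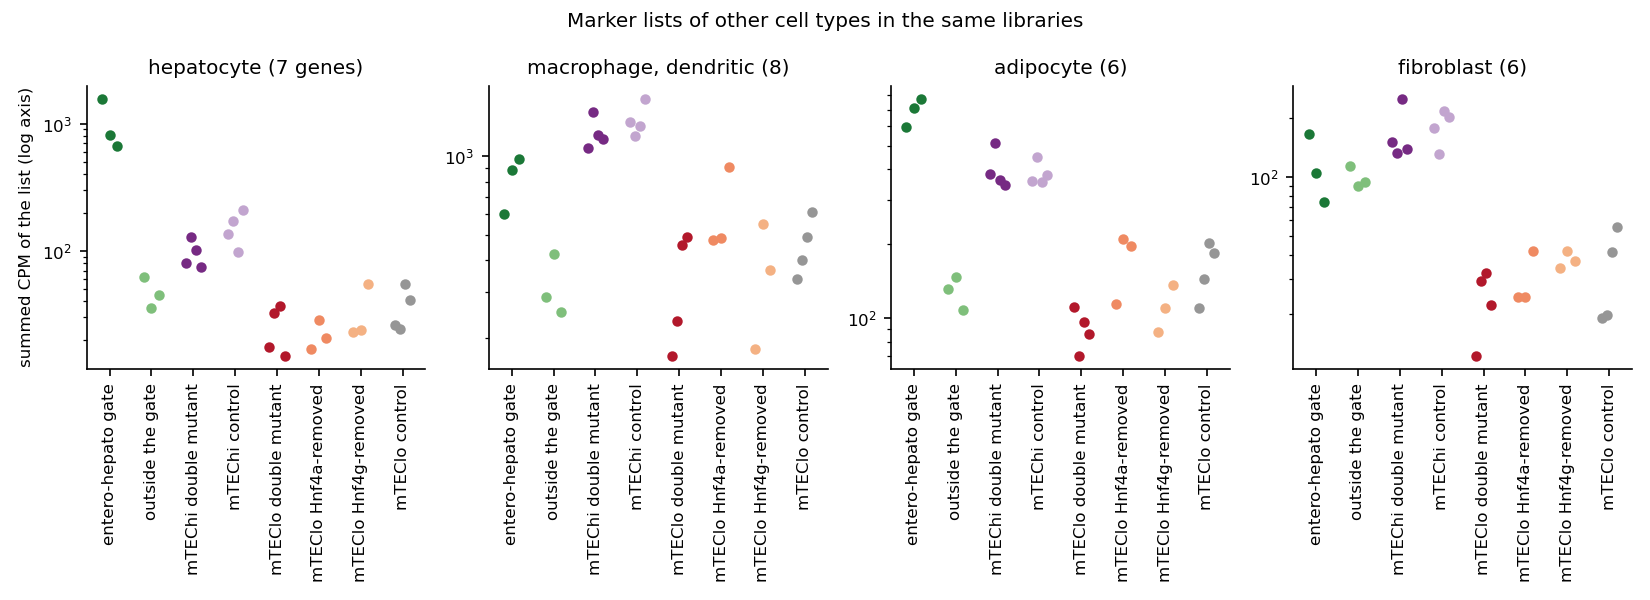
Summed CPM of 4 marker lists of other cell types in every library (log axis), with 1 point per library. The hepatocyte list is highest in the entero-hepato gate (663 to 1567 CPM), and all 4 lists lie higher in control mTEChi than in control mTEClo.

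C2, Cfb and C4b are neighbours in the class III part of the major histocompatibility complex on chromosome 17 (GRCm38, GENCODE M21). Cfb spans chr17:34856374-34862518 and C2 chr17:34862604-34898265, both on the minus strand, with 85 bases between them. C4b spans chr17:34728380-34743882, also on the minus strand, and its near-identical copy C4a chr17:34809092-34823464. A read-through gene model, Gm20547, overlaps Cfb and C2 and had 3 reads in 2 of 28 libraries. Taken over all overlapping gene models, 79.5% of the exon bases of Cfb are shared (Gm20547 and Mir6972 together). For C2 the share is 46.9% (Gm20547 and Zbtb12 together), and the part due to Gm20547 alone was not separated. Reads on shared bases may thus have been left uncounted for Cfb and C2, and per kb of their unshared exon bases the entero-hepato gate had 62.4 ± 8.36 CPM for Cfb and 39.0 ± 8.73 for C2, the reverse of their order over all exon bases. The rise of C2 and Cfb between the gates was not shared by the genes tested around them. Of 9 neighbours (Ehmt2, Nelfe, Skiv2l, Dxo, Stk19, C4a, Tnxb, Cyp21a1 and Zbtb12) 7 were tested and 0 passed in edgeR (0 with an unadjusted p under 0.05), with log2 fold changes of -0.05 for Stk19 to 0.26 for Ehmt2. With reads of C4a and C4b summed, the log2 fold change of C4b between the gates was 0.89 (adjusted p = 0.106 by edgeR).

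Control mTEChi had more transcript than control mTEClo of 5 complement genes, Mbl2, Cfb, Cfd, C3 and C4b, and less of 1, Cfi. These 6 of 8 tested members stand against 42.9% of all 20095 genes called in this comparison (edgeR). Cfd is in this count, although it had too few reads to be tested in the mTEClo fit. It passed the filter on low counts here through its reads in mTEChi, where it is high, so its call was favoured by the filter. The members' median log2 fold change was 1.21, against 0.04 over all genes tested. C2 and Hc did not pass.

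Mbl2 was at 56.0, 30.0, 16.6 and 24.4 CPM in control mTEChi, against 0.54, 2.62, 6.38 and 0.29 CPM in control mTEClo. All mTEChi libraries lay above all mTEClo libraries, and 2 of the mTEClo libraries had 4 reads or fewer. The fitted fold was 13.3 (log2 fold change 3.73, SE 0.73, by edgeR with adjusted p = 0.000552), and without the 3 libraries that stood apart the log2 fold change was 3.38 (adjusted p = 0.00236 by edgeR). Mbl2 was at 1.53 to 2.37 CPM on average in the 3 mutant mTEClo groups, close to the 2.46 CPM of control mTEClo.

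Cfb was at 11.5, 10.5, 10.2 and 8.81 CPM in control mTEChi, against 2.27, 4.16, 3.71 and 5.62 CPM in control mTEClo. The groups did not overlap (log2 fold change 1.41, SE 0.43, by edgeR with adjusted p = 0.0130; 1.21 and 0.0454 without the 3 libraries). C2, in contrast, was at 26.3, 36.5, 30.3 and 29.1 CPM, against 26.3, 18.5, 19.9 and 31.0 CPM. The libraries of C2 overlapped and the difference did not pass (log2 fold change 0.38, interval -0.0047 to 0.77, adjusted p = 0.102 by edgeR), although it passed without replicate 4 of control mTEClo (0.53, adjusted p = 0.0348 by edgeR). Cfd had 6, 16, 9 and 27 reads in control mTEChi and 0, 1, 0 and 2 reads in control mTEClo (adjusted p = 0.00162 by edgeR). Relative to the library totals the ratio was 20.7, with an exact 95% interval of 6.73 to 103 that covers counting error only.

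C3 was at 614, 748, 829 and 698 CPM in control mTEChi, against 350, 266, 500 and 462 CPM in control mTEClo. The groups did not overlap, and the log2 fold change was 0.90 (SE 0.16, adjusted p = 0.000179 by edgeR; 0.84 and 0.00113 without the 3 libraries). C4b was at 11.3, 3.44, 3.79 and 4.97 CPM, against 1.34, 1.08, 1.93 and 2.88 CPM in control mTEClo. Replicate 1 of control mTEChi was well above its group, and without it the call was lost (log2 fold change 1.19, adjusted p = 0.121 by edgeR, against 1.72 and 0.0253 with it). C4b also did not pass without control mTEClo replicate 1 (1.59, adjusted p = 0.0684 by edgeR; the fit without the 3 libraries is the same, since 2 of them are not in it) or replicate 2 (1.54, 0.0696).

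Cfi went the other way. It was at 15.3, 13.2, 16.5 and 13.7 CPM in control mTEChi, against 19.3, 20.7, 27.6 and 25.1 CPM in control mTEClo, with no overlap. The log2 fold change was -0.63 (SE 0.18, adjusted p = 0.00809 by edgeR; -0.71 and 0.00683 without the 3 libraries). Hc was at 2.88, 6.15, 8.31 and 6.55 CPM in control mTEChi, against 3.61, 3.70, 1.19 and 3.60 CPM in control mTEClo, with overlap (log2 fold change 1.01, interval -0.19 to 2.21, adjusted p = 0.164 by edgeR).

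Of the other complement genes 32 were tested between the subsets, 12 were higher and 5 lower in control mTEChi, with a median log2 fold change of 0.96 (0.04 over all genes tested). With 42.9% of all genes called in this comparison, this count too is near the background. Recognition proteins and initiating proteases made up 9 of the 12, of 12 tested. In the fit of mTEClo alone 9 genes of this role had enough reads to be tested. C1qc, Fcnb and Colec11 passed the filter on low counts only with mTEChi in the fit, which favoured a higher value there. C1qb (36.4 ± 8.19 in control mTEChi and 6.71 ± 6.62 CPM in control mTEClo) and C1qa (15.5 ± 4.63 and 1.84 ± 0.89 CPM) encode chains of C1q, the recognition part of C1. Fcna, ficolin A, was at 28.4 ± 4.04 and 6.17 ± 4.65 CPM, and Serping1 at 51.6 ± 16.2 and 12.3 ± 7.36 CPM (SD, n = 4 each). The regulator Cpn1, which trims complement peptides, was lower at 8.75 ± 0.79 and 24.3 ± 3.81 CPM, as was the pore component C8a at 3.92 ± 1.65 and 14.8 ± 6.65 CPM. The class III neighbours Ehmt2, Skiv2l and Stk19 were lower in control mTEChi, with log2 fold changes of -0.42, -0.57 and -0.41, and the other 5 of 8 tested did not pass.

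Several marker lists lay higher in control mTEChi as well. Macrophage and dendritic cell markers, of interest beside C1q, which macrophages make, summed to 1196 to 1667 CPM in control mTEChi and 338 to 612 CPM in control mTEClo, with 6 of 8 genes higher. Adipocyte markers, beside Cfd, also known as adipsin, summed to 354 to 448 and 110 to 201 CPM, with 4 of 5 tested genes higher, among them Adipoq at 21.0 and 3.39 CPM. Hepatocyte markers summed to 97.7 to 209 and 24.2 to 54.7 CPM, with 4 of 6 higher and Ahsg lower. Fibroblast markers summed to 131 to 217 and 19.1 to 55.3 CPM. Thymocyte markers summed to 22.5 to 49.7 and 3.61 to 12.6 CPM (5 of 6 higher) and erythroid markers to 29.4 to 43.9 and 8.31 to 32.3 CPM (3 of 5 higher, Hbb-bt at 0 in mTEClo). B cell markers summed to 74.7 to 83.4 and 79.9 to 105 CPM (3 of 4 genes higher, 1 lower), and endothelial markers to 8.46 to 19.1 and 6.05 to 9.89 CPM (0 of 3 higher in edgeR). The part of these cells in the complement result was not tested.

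Double-mutant mTEChi had less C3 than control mTEChi, by a factor close to 0.514, and no other member passed the test. These 1 of 8 tested members stand against 0.635% of all 18413 genes called in this comparison (edgeR). The 4 control libraries are those of the comparison with mTEClo. The members' median log2 fold change was -0.35, against 0.01 over all genes tested, with 6 of 8 below 0. C3 was at 361, 328, 410 and 385 CPM in double-mutant mTEChi, against 614, 748, 829 and 698 CPM in control mTEChi. Every double-mutant library lay below every control library, at about the level of control mTEClo (395 ± 107 CPM). The log2 fold change was -0.96 (SE 0.11, 95% interval -1.20 to -0.72, adjusted p = 0.00130 by edgeR). C3 kept its call without each library in turn, with an adjusted p of at most 0.00788 by edgeR.

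Cfb was at 9.22, 6.77, 4.36 and 5.61 CPM in double-mutant mTEChi, against 11.5, 10.5, 10.2 and 8.81 CPM in control mTEChi. Among the double mutants 1 library reached into the control range, and the difference did not pass (log2 fold change -0.66, interval -1.32 to -0.0013, adjusted p = 0.447 by edgeR). Mbl2 was at 20.3, 20.5, 37.4 and 13.3 CPM, against 56.0, 30.0, 16.6 and 24.4 CPM, and its groups overlapped (-0.47, interval -1.27 to 0.34). C2 was at 33.2, 23.8, 21.4 and 25.6 CPM, against 26.3, 36.5, 30.3 and 29.1 CPM in control mTEChi (-0.23, interval -0.63 to 0.16). The remaining members overlapped as well, with log2 fold changes of -0.69 for Hc, -0.14 for C4b, 0.10 for Cfd and 0.23 for Cfi.

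Of the 32 other complement genes tested in mTEChi, 1 was lower and 0 were higher in double mutants by edgeR, 7 had an unadjusted p under 0.05, and DESeq2 called the same single gene. This was C4bp, at 9.52 ± 2.49 CPM in double-mutant and 27.9 ± 7.85 CPM in control mTEChi (SD, n = 4 each; log2 fold change -1.55, adjusted p = 0.0197 by edgeR). Among the hepatocyte markers Ttr was lower, at 2.21 ± 2.40 and 30.7 ± 5.91 CPM (adjusted p = 0.0198 by edgeR), and the list summed to 74.4 to 128 CPM in double-mutant and 97.7 to 209 CPM in control mTEChi. The macrophage and dendritic list (1076 to 1483 and 1196 to 1667 CPM), the adipocyte list (348 to 510 and 354 to 448 CPM) and the fibroblast list (133 to 250 and 131 to 217 CPM) overlapped between the genotypes, and 0 of their genes passed in edgeR.

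In mTEClo, none of the 7 tested members passed in any of the 3 mutants by edgeR. The genes called overall were 0.74% of 18775 with both genes removed, 0.00533% with Hnf4a removed and 0.0959% with Hnf4g removed. The 3 comparisons share the 4 control libraries, so their values are not independent. With both genes removed 3 members had an unadjusted p under 0.05 (C3, Cfb and Cfi) and DESeq2 called C3. With Hnf4a removed 0 members had such a p and with Hnf4g removed 1 had (Cfb), and DESeq2 called 0 in both. The members' median log2 fold change was -0.46 in double mutants, -0.05 with Hnf4a removed and -0.20 with Hnf4g removed, against -0.0015, -0.0090 and 0.0032 over all genes tested.

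C3 was at 286, 227, 263 and 229 CPM in double-mutant mTEClo, at 223, 310 and 402 CPM with Hnf4a removed and at 366, 370 and 292 CPM with Hnf4g removed, against 350, 266, 500 and 462 CPM in control mTEClo. The highest double-mutant library overlapped the lowest control library, and both single mutants lay within the spread of the controls apart from 1 Hnf4a-removed library below it. The log2 fold change was -0.65 in double mutants (SE 0.19, interval -1.06 to -0.25, adjusted p = 0.147 by edgeR), -0.35 with Hnf4a removed (interval -0.79 to 0.08) and -0.20 with Hnf4g removed (interval -0.64 to 0.23). In double mutants C3 passed by DESeq2 (-0.66, adjusted p = 0.0206) and by edgeR with no filter on low counts (-0.64, adjusted p = 3.34e-06). The estimates hardly moved, and these fits called more genes of every kind (456 and 967, against 139 in the main fit). Without the 3 libraries that stood apart C3 was at -0.71 (adjusted p = 0.0581 by edgeR).

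Cfb had few reads in mTEClo, at most 39 a library. It was at 0.54, 2.50, 2.38 and 0.74 CPM in double mutants, at 2.40, 4.11 and 4.97 CPM with Hnf4a removed and at 2.02, 1.76 and 1.25 CPM with Hnf4g removed, against 2.27, 4.16, 3.71 and 5.62 CPM in control mTEClo. All 3 Hnf4g-removed libraries lay below all controls, and 2 of the double-mutant libraries did. The log2 fold change was -1.35 in double mutants (interval -2.45 to -0.25, adjusted p = 0.280 by edgeR), -0.05 with Hnf4a removed (interval -1.20 to 1.09) and -1.23 with Hnf4g removed (interval -2.44 to -0.01, adjusted p = 0.605 by edgeR). Without the 3 libraries these values were -1.54, 0.0016 and -1.57, and none passed in edgeR.

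Cfi was at 27.0, 30.4, 35.8 and 30.6 CPM in double mutants, at 27.9, 28.6 and 24.4 CPM with Hnf4a removed and at 23.2, 27.7 and 21.8 CPM with Hnf4g removed, against 19.3, 20.7, 27.6 and 25.1 CPM in control mTEClo. The lowest double-mutant library overlapped the highest control (log2 fold change 0.42, interval 0.09 to 0.74, adjusted p = 0.250 by edgeR). C2 stood at 20.5 to 25.0 CPM in double mutants, 24.0 to 30.8 with Hnf4a removed and 17.6 to 29.8 with Hnf4g removed, against 18.5 to 31.0 CPM in control mTEClo. The interval of its log2 fold change in double mutants was -0.46 to 0.36. Mbl2, C4b and Hc had 43 reads or fewer in every mTEClo library and intervals wider than 1 log2 unit on either side of the estimate, and Cfd had too few reads to be tested.

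Of the other complement genes 28 were tested in mTEClo. In double mutants 1 was lower by edgeR, the receptor gene Cr2 (27.3 ± 14.6 and 80.4 ± 16.7 CPM in double-mutant and control mTEClo, adjusted p = 0.0381), 4 had an unadjusted p under 0.05, and DESeq2 called Cr2 and C4bp. With Hnf4a removed edgeR and DESeq2 called 0 of 28 (2 with an unadjusted p under 0.05), and with Hnf4g removed also 0 (6 with an unadjusted p under 0.05). Sums of the hepatocyte list were 14.95 to 36.7 CPM in double mutants and 24.2 to 54.7 CPM in controls, of the macrophage and dendritic list 170 to 488 and 338 to 612 CPM, and of the adipocyte list 70.3 to 111 and 110 to 201 CPM. The part of these cells was not tested. The mTEC list summed to 4694 to 5164 CPM in double mutants and 5246 to 6636 CPM in controls, without overlap. In edgeR 0 of its 8 genes passed, with a median log2 fold change of -0.57. Krt5, Foxn1, Aire, Cd80 and H2-Aa were lower with an unadjusted p under 0.05 by edgeR. Epcam, Krt8 and Cldn4 had no such p. Along the first principal component double-mutant mTEClo lay at 72.35 to 78.69 and control mTEClo at 28.49 to 64.53, with control mTEChi at -72.85 to -69. The part of such a shift among mTECs in the member values was not tested.

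The difference between the double-mutant effects in mTEChi and mTEClo passed for 0 of 8 members in edgeR, with 1 unadjusted p under 0.05 (Cfd) and 0 calls by DESeq2, against 0.0597% of 20095 genes called by edgeR. For C3 the effect was -0.96 in mTEChi and -0.65 in mTEClo, and the difference was -0.31 (interval -0.77 to 0.15, adjusted p = 0.660 by edgeR). The call of C3 in mTEChi and its absence in mTEClo therefore do not show a difference between the subsets.

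**Figure D4:**
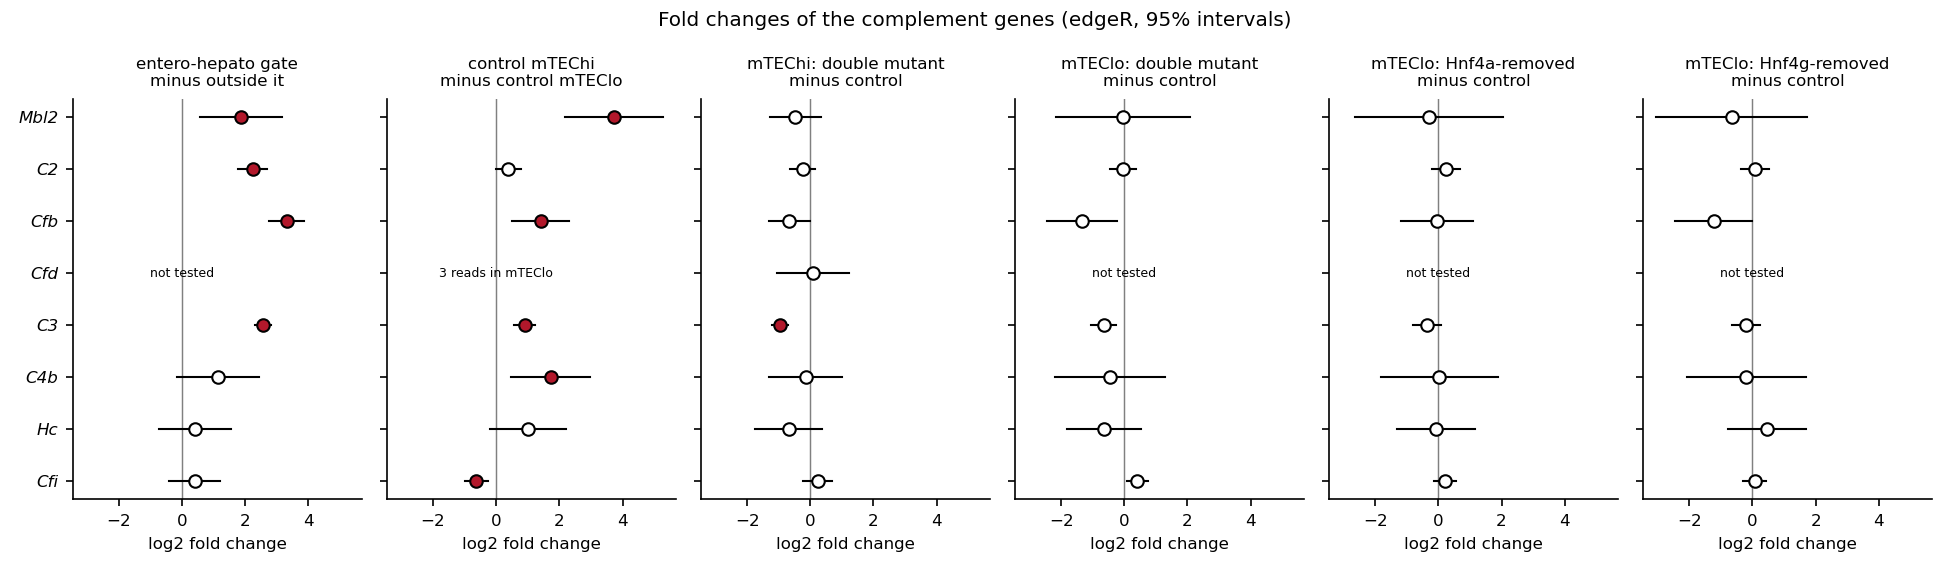
Log2 fold changes of the 8 complement genes in 6 comparisons (x axis) with 95% intervals from edgeR. Filled points have adjusted p under 0.05. Cfd has no point between the gates or in the mTEClo mutants, where it was not tested. Between control mTEChi and control mTEClo it was called, but a label of its 3 reads in mTEClo stands in place of the point. C3 is the single filled point among the 4 mutant comparisons, at -0.96 in mTEChi, and the points for Cfb lie at -0.66 in mTEChi and at -1.35 in double-mutant mTEClo.

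Over all 8 groups the order of mean C3 levels was entero-hepato gate (4974 ± 667 CPM), non-entero-hepato gate (833 ± 29.6), control mTEChi (722 ± 90.2), control mTEClo (395 ± 107), double-mutant mTEChi (371 ± 34.9), Hnf4g-removed (342 ± 44.1), Hnf4a-removed (312 ± 89.7) and double-mutant mTEClo (251 ± 28.6). Only the entero-hepato gate and control mTEChi were set off from the next group by libraries that did not overlap. For Cfb the entero-hepato gate (36.1 ± 4.84 CPM) was also first, with control mTEChi next after a gap (10.3 ± 1.12). The non-entero-hepato gate (3.56 CPM) came below both mTEChi groups, control mTEClo and Hnf4a-removed mTEClo, and a gap set it off from Hnf4g-removed (1.68 ± 0.39) and double-mutant mTEClo (1.54 ± 1.04), which were last. For C2 the entero-hepato gate (80.1 ± 17.9 CPM) was clear of the rest, 6 groups between 23.2 and 30.6 CPM overlapped with their neighbours and the non-entero-hepato gate (16.9 ± 3.06) was last, with no overlap with double-mutant mTEClo just above it. Mbl2 formed no gap between neighbouring groups, from 51.8 ± 19.1 CPM in the entero-hepato gate to 1.53 ± 1.37 in Hnf4g-removed mTEClo. C4b, Hc and Cfd also had no such gap. Cfi had the reverse arrangement, with double-mutant mTEClo first (31.0 ± 3.61 CPM) and the non-entero-hepato gate last (8.82 ± 3.71). Control mTEChi (14.7 ± 1.51) and the entero-hepato gate (11.7 ± 2.18) barely missed each other. The lowest control mTEChi library was at 13.2 CPM and the highest of the gate at 13.1 CPM.

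The members did not all follow each other across the 28 libraries. As a description over libraries that share groups, the Pearson correlation of log2(CPM + 1) was 0.84 between C3 and Cfb, 0.79 between C2 and Cfb, 0.73 between C3 and C2 and 0.66 between C3 and Mbl2. It was -0.67 between C3 and Cfi and -0.20 between C2 and Cfi. Among 12804 genes that averaged 10 CPM or more in some group, those most like C3 were Btnl4 (0.96), Hook1 (0.95) and Slc20a1 (0.95). The nearest to Cfb were Aoc1 (0.97), Cdh17 (0.96) and Vopp1 (0.96), the nearest to C2 Arfgap3, Tspan3 and Irf1 (0.93 each) and the nearest to Mbl2 Tor1aip2 (0.93), Stx11 (0.92) and Smim3 (0.90). Mfge8, Cx3cl1 and Ccne1 (0.83 to 0.84) were nearest to C4b and Dap, Ap1m2 and Mgll (0.91 each) to Cfi. Hc and Cfd were below 10 CPM in every group and were not compared in this way.

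Promoter windows of 300 bases, from 250 before to 50 after the annotated start, were found in the RefSeq table (GRCm38.p6) for 4 of the 8 members, C3, Hc, Cfd and Mbl2. C3 is printed as the member that changed in most comparisons, Mbl2 as a gene that passed between the gates and between the subsets and in none of the mutant comparisons, and Hc as one that passed in no comparison. Sequences run 5′ to 3′ on the gene's strand, and capitals mark a match to a searched motif. The windows are chr17:57228087-57228386 (minus strand) for C3, chr19:30232678-30232977 (plus strand) for Mbl2 and chr2:35061363-35061662 (minus strand) for Hc.
C3: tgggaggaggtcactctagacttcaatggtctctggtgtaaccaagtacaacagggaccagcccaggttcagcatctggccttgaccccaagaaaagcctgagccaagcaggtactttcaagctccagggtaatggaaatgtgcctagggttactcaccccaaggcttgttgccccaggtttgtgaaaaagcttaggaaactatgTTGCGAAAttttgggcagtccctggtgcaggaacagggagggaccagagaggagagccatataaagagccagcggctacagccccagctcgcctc
Mbl2: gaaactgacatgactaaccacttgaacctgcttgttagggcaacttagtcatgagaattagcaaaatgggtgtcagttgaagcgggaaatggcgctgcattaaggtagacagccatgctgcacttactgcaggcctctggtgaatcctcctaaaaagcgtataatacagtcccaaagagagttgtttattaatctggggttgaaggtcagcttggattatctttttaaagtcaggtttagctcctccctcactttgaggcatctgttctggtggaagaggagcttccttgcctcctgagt
Hc: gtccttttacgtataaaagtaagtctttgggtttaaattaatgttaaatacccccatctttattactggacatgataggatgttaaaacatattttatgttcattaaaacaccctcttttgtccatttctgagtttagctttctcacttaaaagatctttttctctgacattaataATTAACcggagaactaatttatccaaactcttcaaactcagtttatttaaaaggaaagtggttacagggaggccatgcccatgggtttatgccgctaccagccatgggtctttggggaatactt

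The motifs searched on both strands were CAAAGTCCA (HNF4 type), 2 copies of AGGTCA in a row with 1 base between (nuclear receptor direct repeat), GTTAAT (HNF1 type), TTGCNNAA (C/EBP type) and 2 copies of GAAA with 2 bases between (interferon type). No window held matches to more than 1 of them. C3 held TTGCGAAA starting at base -45 from the start site, and Hc held ATTAAC, the HNF1-type letters read on the other strand, at base -74. Mbl2 and Cfd held no match. Among 32851 promoter windows of this length the C/EBP letters were in 10.8%, the HNF1 letters in 7.1%, the interferon type in 3.44%, CAAAGTCCA in 0.475% and the direct repeat in 0.0396%. A match describes the letters in a window, and none of the 4 windows held the letters of either nuclear receptor type.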

How the data were processed

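Read counts per gene, as the authors deposited them, came from 28 libraries of sorted mouse mTECs, made per the labels' protocols from oligo(dT)-primed, amplified cDNA cut with Tn5. STAR 2.7.3a, featureCounts and build mm10 are named per the submitters' processing notes; annotation and counting options: not given in the sources used here. The counts are whole numbers and not normalized, and 0 columns lacked a sample. There were no molecular identifiers and no strand, so intervals from reads cover counting error only.

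Groups followed the labels. Thymi are numbered in the labels, yet nothing there says whether replicates were separate animals. P-values therefore reflect library-to-library spread alone, possibly technical. None of 36 replicate pairs agreed within sampling noise (chi-square per degree of freedom 5.93 to 24.2).

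The quasi-likelihood test of edgeR 4.0.16 (R 4.3.3, TMM) was run after filterByExpr by group (minimum count 10, total 15). Benjamini-Hochberg adjustment covered all genes tested, and genes under 0.05 were called. The gates had a fit of 6 libraries, mTEClo of 14, mTEChi of 8 and comparisons across subsets of 16. Standard errors are the log2 fold change over the root of the F statistic, and 95% intervals use the fit's degrees of freedom. The test was checked on simulated counts.

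DESeq2 1.42.0, its size factors, plain totals, no filter, fewer groups, a replicate block and leaving out libraries were alternatives. Leaving out the 3 libraries that stood apart, summing C4a with C4b and giving Gm20547 beside them were chosen after seeing the data. All 8 members are named in each comparison, with at most 6 called complement genes of smallest p and the 3 genes of highest correlation with each member. Members, lists and tests were chosen with earlier results of these data known. Positions and exon lengths come from GENCODE M21 (GRCm38), promoters from RefSeq (GRCm38.p6). With these depths, genes with few reads (Cfd, Hc, and most members in mTEClo) have wide intervals.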

Additional observations from a re-analysis of the deposited data

Results flagged for a closer look

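Hc in control mTEClo stood out for 1 library. Replicate 3 was at 1.19 CPM, from 8 reads, while the other 3 libraries were at 3.60 to 3.70 CPM, and the gap took 0.96 of the group's range, above Dixon's 95% critical value for 4 samples. It was the only such library in 32 tests of groups of 4 libraries over the 8 members, and chance flags about 1 in 20 groups. Hc passed the test in no comparison, with this library or without it.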

How the results depend on the processing

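Over the 52 member values tested by edgeR, 11 were called. Of 783 values under the alternatives, 770 kept their direction where called and their side of the threshold, 8 lost a call, 5 gained one and 0 reversed a call. In double-mutant mTEClo 1 member (C3) was called by DESeq2 and 1 (C3) with no filter, against 0. Leaving out each library in turn gave 3 to 5 called members between the gates, 5 to 7 between mTEChi and mTEClo, 1 in each fit in double-mutant mTEChi, and 0 in each fit for the 3 mTEClo mutants and for the difference of the double-mutant effects. The lost calls were those of Mbl2 between the gates (4 alternatives, DESeq2 at adjusted p = 0.0501 and plain totals among them) and C4b between the subsets (4 alternatives). The cause of the lost calls was not tested. Over all 11 alternatives, with the call kept or lost, the log2 fold change of Mbl2 between the gates was 1.41 to 2.87. Same-numbered libraries correlated at -0.0408 to 0.31 in their deviations from group means, and in no comparison did every pair exceed 0.1. With 3 or 4 libraries a group these values do not settle whether equal numbers share an animal or a day. The labels do not say, and the main fits treat the libraries as unpaired. With the replicate block the called members were 4 between the gates, 6 between the subsets, 1 in double-mutant mTEChi and 0 elsewhere, and the block changed no member's call. The block gave 5 called genes in all for the difference of the double-mutant effects, against 12.

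Counts over all genes moved more than those of the members. In double-mutant mTEClo they were 456 by DESeq2, 967 with no filter, 295 with only the 2 groups compared and 543 without the 3 libraries, against 139, and 47 to 207 without each library in turn. In double-mutant mTEChi they were 439 by DESeq2 and 619 with no filter, against 117, and 71 to 188 without each library. For Hnf4a removed they were 8 by DESeq2 and 212 with no filter, 0 with only the 2 groups compared and 0 without the 3 libraries, against 1. For Hnf4g removed they were 143, 482 and 11 (DESeq2, no filter, without the 3 libraries), against 18. For the difference of the effects they were 360, 321 and 85, against 12, and 1 to 157 without each library. CPM of plain totals moved 3 levels by more than 1 SD: C3 to 4127 in the entero-hepato gate and 898 outside it, and Cfb to 30.0 in the gate.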
